A study of Mus musculus with 12 samples.

Results

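The genes of the proteasome, the protease complex that degrades ubiquitin-tagged proteins, were examined in the livers of mice that carried an inducible human alpha1-antitrypsin gene. Members were all genes whose symbol on the array begins with Psma, Psmb, Psmc, Psmd, Psme, Psmf or Psmg and goes on with a number, apart from the interferon-inducible subunits Psmb8, Psmb9 and Psmb10. The rule took 45 of the 12393 genes that had a probe set of their own, and a gene with several probe sets was represented by the one with the highest mean log2 signal. Of these, 43 encode proteasome subunits, assembly chaperones, activators or an inhibitor. The other members, Psmc3ip and Psme3ip1, fit the rule by name but encode interacting proteins. No measured difference between groups entered the choice by the rule.

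Liver RNA of 12 male mice aged 6 weeks was hybridised to 12 one-colour Affymetrix arrays, 3 in each of 4 groups. The labels call the arrays of a group biological replicates. All mice carried human alpha1-antitrypsin under hepatocyte-specific inducible control, the M mice in its wild-type form and the Z mice in its mutant form, which misfolds and is retained in the endoplasmic reticulum. The off groups, M off and Z off, drank doxycycline at 40 µg/mL from conception and the on groups, M on and Z on, received none. Transgene expression and absence of the drug therefore cannot be told apart, and neither can the mutant form and the line that carries it. The promoter of the transgene and the strain of the mice are not given in the sources used here.

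The proteasome consists of a barrel-shaped core particle, with alpha rings at both ends and catalytic beta rings inside, and a regulatory cap. The cap recognises ubiquitin chains, removes them, unfolds the substrate with a ring of ATPases and feeds it into the core. Misfolded proteins of the endoplasmic reticulum reach the proteasome after being drawn back into the cytosol, a route known as ER-associated degradation, and the Z form of alpha1-antitrypsin is a known substrate of it. When proteasome activity is short, the transcription factor NRF1, encoded by Nfe2l1, is known to raise the transcription of most subunit genes together.

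The liver label was borne out by its markers: all 8 hepatocyte genes looked up had a probe set, and their summed signal lay between 103400 and 155600 on every array. The summed signal of 6 Kupffer cell markers lay between 941 and 1364. The 5 stellate cell markers summed to 1724 to 1849 in M off and 1603 to 1849 in Z off, and to 1020 to 1570 in M on and 976 to 1299 in Z on. The 2 erythroid markers with a probe set stood apart in Z off, at 1121 to 1492 against 146 to 312 on the other arrays. The 4 sinusoidal endothelial markers summed to 585 to 620 in M off, 463 to 546 in M on, 563 to 758 in Z off and 626 to 808 in Z on. Those of skeletal muscle, 4 in number, summed to 65.0 to 387.0 in M off and 33.1 to 48.3 in M on. In Z off they summed to 80.3 to 129.1 and in Z on to 27.0 to 78.2. The 4 exocrine pancreas markers summed to 548 to 910 over all arrays. The ratio of the 3' to the 5' probe sets of beta-actin, a measure of RNA integrity and labelling in which a higher value means less 5' signal, was 2.18 to 2.53 on Z off and 2.44 to 5.16 on Z on arrays. It was 2.72 to 3.89 in M off and 3.09 to 4.38 in M on. The 3' probe set of 18S ribosomal RNA read 914.2, 1491.7 and 1483.6 in Z on, above all other arrays. It read 568.2 to 709.8 in M off, 226.6 to 767.5 in M on and 93.9 to 373.0 in Z off. Its 5' probe set was also highest in Z on, at 306.1 to 537.2 against at most 250.8 elsewhere. By the middle probe set, Z on (185.0 to 458.7) overlapped both M groups. In whole liver, fewer cells of a type and less RNA per cell cannot be told apart.

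The proteasome genes were measured well above the dim end of the array. Of the 45 members, 43 lay above the median level of all probe sets and 41 above their upper quartile, and in 40 the highest of the 12 signals was less than 2 times the lowest. The dim members were Psma8, the alpha subunit known from testis, at 1.4 to 31.7 signal units, and Psmc3ip, a meiotic recombination cofactor, at 9.5 to 102.5. The median within-group SD of the members was 0.17 on the log2 scale, where 1 unit is a doubling. It was 0.28 for the probe sets above the median level and 0.51 for all 22626 tested. Signals of different probe sets are not comparable as transcript amounts, so differences are given within a probe set.

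No proteasome gene passed the test in any comparison. A call was an adjusted p under 0.05 from limma, a linear model fitted to all 22626 probe sets, with Benjamini-Hochberg adjustment over all of them. In Z on against Z off, 0 of 45 members were called, where 0.0133% of all probe sets were (3 in number). The count was also 0 of 45 in M on against M off (0% of all probe sets), in the difference between these effects, called the interaction (0%), in Z on against M on (0.00884%) and in Z off against M off (0.0707%). At an unadjusted p under 0.05 the members numbered 1, 0, 0, 2 and 0 in that order, against 6.29%, 5.18%, 5.18%, 6.85% and 7.73% of all probe sets.

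The size of any difference was bounded more closely for proteasome genes than for most probe sets. The 95% confidence interval of the Z on against Z off difference lay within 2-fold in either direction for 43 of 45 members, against 39.5% of all probe sets and 73.7% of those above the median level. The exceptions were Psma8 and Psmc3ip. For M on against M off the interval was within 2-fold for 42 members, Psmd7 being the further exception, and for the interaction for 37. In all 5 comparisons together, 36 members kept within this bound. The tighter bound of 1.5-fold held for 27 members in Z on against Z off, 34 in M on against M off and 7 in the interaction.

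**Figure D1:**
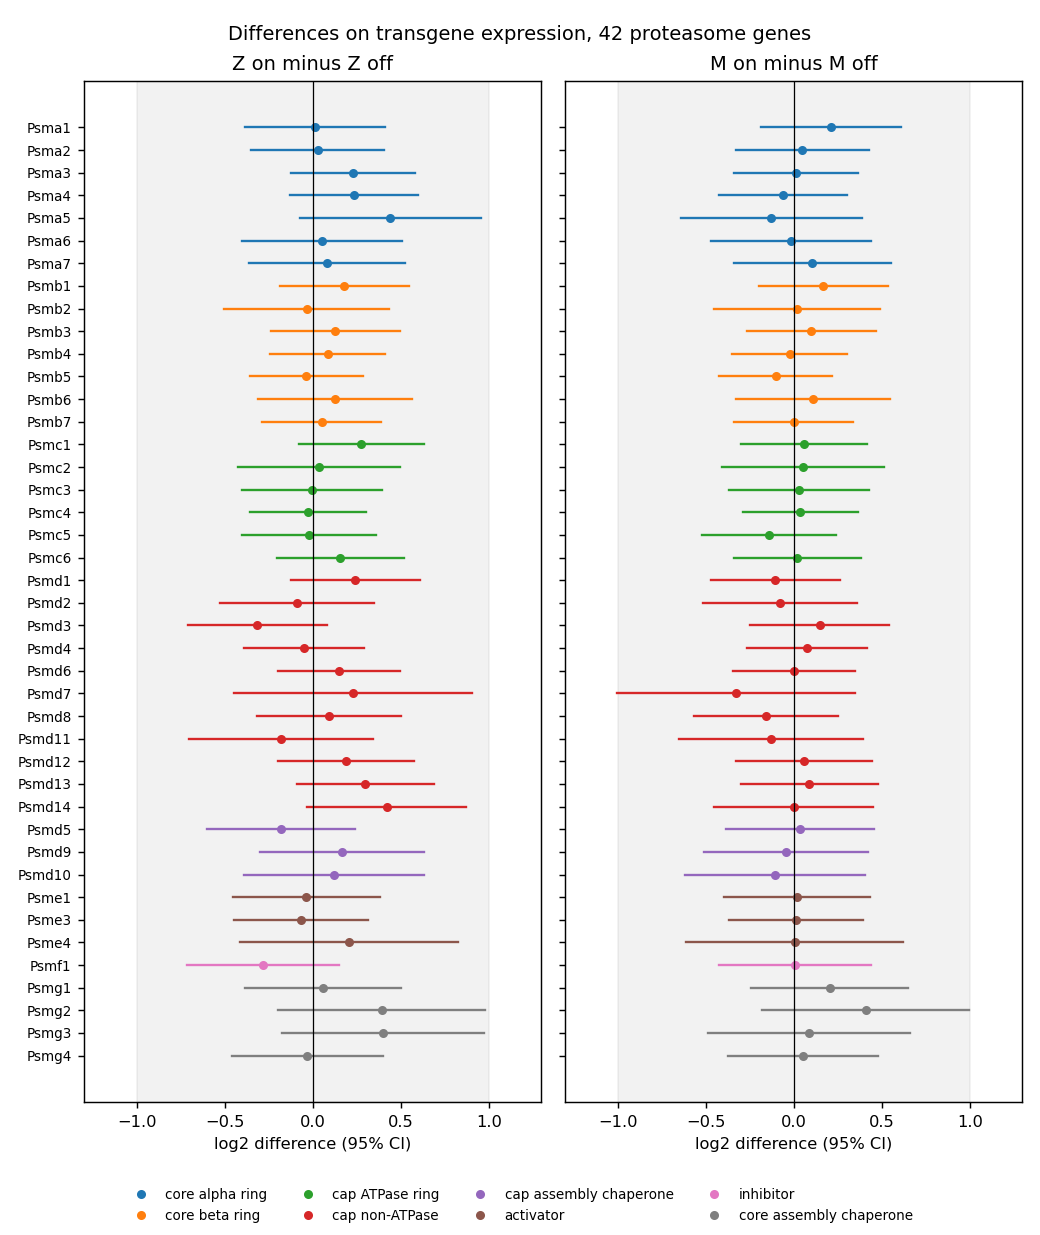
Log2 difference of each proteasome gene between expressing and silent livers, with 95% confidence intervals, for Z on against Z off and M on against M off, ordered by role, with the 2-fold range shaded. Psma8 and both interacting proteins are not drawn, and of the 42 genes shown none was called in either comparison.

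The catalytic subunits of the core beta ring differed by at most 0.13 between Z on and Z off. Psmb5, which carries the chymotrypsin-like activity, read 979.9, 827.9 and 880.6 in M off, 855.8, 815.0 and 824.3 in M on, 911.4, 924.7 and 884.6 in Z off, and 860.9, 935.1 and 858.2 in Z on. Its groups overlapped in Z on against Z off, and the difference was -0.04 (95% interval -0.36 to 0.29, limma adjusted p = 0.9792). Psmb6, which carries the caspase-like activity, read 1149.4, 1169.7 and 952.8 in M off, 1330.5, 1142.3 and 1055.1 in M on, 841.4, 1201.2 and 990.0 in Z off, and 1008.2, 1248.0 and 1037.1 in Z on. Its spread within a group exceeded the difference of 0.13 between Z on and Z off (-0.31 to 0.57, limma adjusted p = 0.9463).

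Psmb7, the trypsin-like subunit, read 2300.9, 2402.0 and 2359.1 in M off, 2538.6, 2415.8 and 2127.6 in M on, 2748.0, 2404.3 and 2732.0 in Z off, and 2544.1, 2830.2 and 2786.5 in Z on. The Z arrays stood above the M arrays of the same doxycycline state, but only just. The nearest were 2404.3 against 2402.0 in the off groups and 2544.1 against 2538.6 in the on groups. The difference was 0.05 in Z on against Z off and 0.21 in Z on against M on, and neither passed the test. The non-catalytic beta subunits Psmb1, Psmb2, Psmb3 and Psmb4 differed by -0.04 to 0.18 in Z on against Z off. The beta ring thus held 5 of 7 members with a higher mean in Z on than in Z off, with a median of 0.08, and 5 of 7 in M on over M off, with a median of 0.02.

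**Figure D2:**
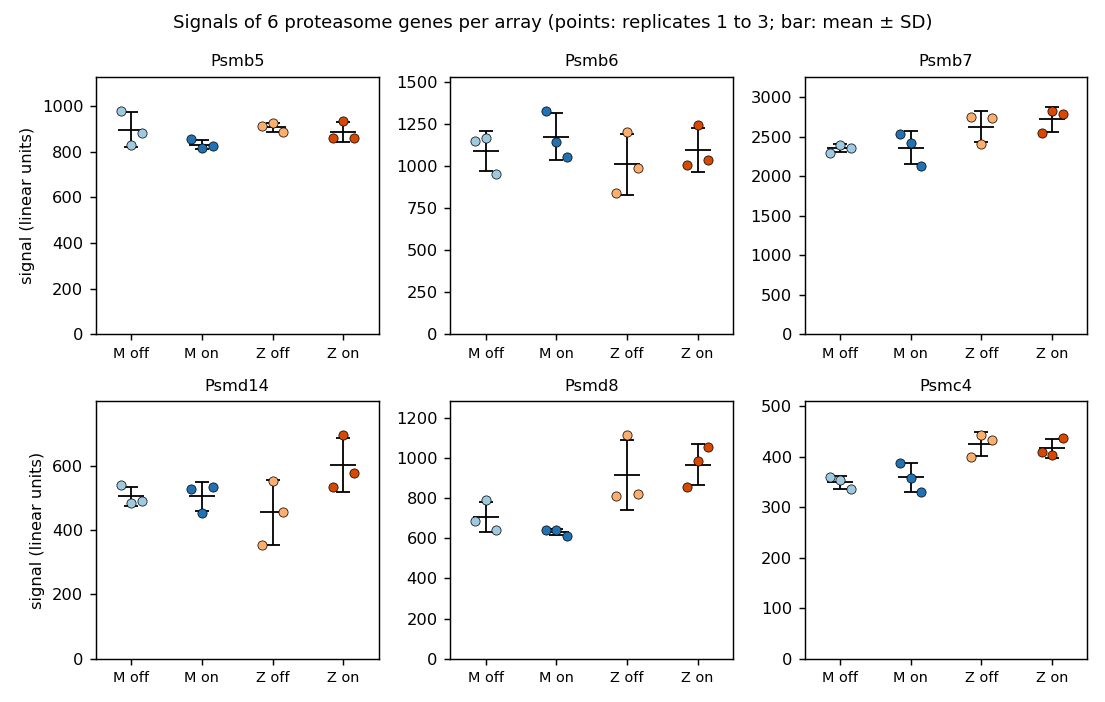
Signal on each of the 12 arrays of the catalytic subunits Psmb5, Psmb6 and Psmb7 and of the cap subunits Psmd14, Psmd8 and Psmc4, by group, with bars for the group mean ± SD. The catalytic subunits overlap between Z on and Z off, while for Psmd8 and Psmc4 all Z arrays lie above all M arrays.

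The alpha ring, whose subunits gate the entrance of the core, had a higher mean in Z on than in Z off for 8 of 8 members, with a median of 0.16, against 47.0% of all probe sets with a higher mean and a median of -0.03. With the probe sets of a gene averaged, Psma1 and Psma5 had a lower mean in Z on. For each of them only the dimmest probe set was lower in Z on. It gave -0.55 for Psma1 (signals of 0.5 to 13.9) and -0.82 for Psma5 (8.3 to 51.5). The largest of these differences among the brighter members was that of Psma5, which read 611.7, 637.1 and 649.1 in M off, 443.9, 640.2 and 682.1 in M on, 448.9, 720.7 and 500.9 in Z off, and 743.1, 674.0 and 810.2 in Z on. The single Z off array at 720.7 lay inside the Z on range. The difference was 0.44 (SE 0.23, limma adjusted p = 0.8218). Averaging all 3 probe sets of Psma5 turned it to -0.08, while the second brightest of them alone gave 0.13.

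Psma3 read 1629.2, 1464.3 and 1457.1 in Z off and 1702.3, 1823.7 and 1808.5 in Z on. Its Z groups did not overlap, at a difference of 0.23. In Z on against Z off, Psmc1 and Psmd13 also did not overlap and were higher in Z on. These 3 of 45 members (6.67%) stood near the 5.22% of all probe sets that were higher without overlap, and 11.8% did not overlap in either direction. In M on over M off the alpha ring had 5 of 8 members with a higher mean, at a median of 0.03.

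The ATPase ring of the cap was split. In Z on against Z off 3 of 6 members had a higher mean, with a median of 0.02. Psmc1 gave the largest difference, with 422.1, 408.0 and 452.1 in M off, 473.4, 441.8 and 419.4 in M on, 407.0, 523.4 and 413.5 in Z off, and 552.4, 536.1 and 527.4 in Z on. All 3 Z on arrays stood above the other 9 arrays. The differences of 0.28 from Z off (SE 0.16, limma adjusted p = 0.847) and of 0.28 from M on did not pass the test. The ATPases Psmc2, Psmc3, Psmc4 and Psmc5 differed by -0.03 to 0.03 between Z on and Z off.

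Among the non-ATPase subunits of the cap, 7 of 11 had a higher mean in Z on than in Z off, with a median of 0.15. Psmd14, the deubiquitinase that strips ubiquitin chains from substrates, read 539.1, 485.0 and 490.9 in M off, 528.0, 453.6 and 534.4 in M on, 353.9, 553.5 and 455.8 in Z off, and 532.9, 694.7 and 577.7 in Z on. The groups overlapped, and the lowest array of all was a Z off array. The difference was 0.42 in Z on against Z off (SE 0.20, interval -0.03 to 0.87, limma unadjusted p = 0.065 and adjusted p = 0.7992) and 0.00 in M on against M off.

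Psmd3, a scaffold subunit of the lid, lay the other way. It read 322.0, 349.9 and 296.3 in M off, 375.2, 359.0 and 336.1 in M on, 472.6, 339.1 and 389.9 in Z off, and 286.3, 325.9 and 346.4 in Z on. Its difference was -0.32 in Z on against Z off (SE 0.18, limma adjusted p = 0.8378), with 1 array of each group in the range of the other. Psmd7, the lid partner of Psmd14, gave the largest negative difference in M on against M off, -0.33 (interval -1.01 to 0.35), from 197.3, 238.4 and 215.4 in M off and 232.7, 163.6 and 133.9 in M on. Its M on arrays spread more widely than the difference, and averaging its probe sets turned the value to 0.22. The ubiquitin receptor Psmd4 differed by -0.05 in Z on against Z off and by 0.07 in M on against M off.

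Psmd1, a large scaffold subunit of the cap base, read 661.0, 634.8 and 606.3 in M off, 602.8, 534.0 and 634.7 in M on, 513.0, 472.8 and 619.4 in Z off, and 598.1, 630.8 and 657.9 in Z on. The means of M off and Z on lay above those of the other groups, and the interaction was 0.35 (SE 0.23). Psmd12, a lid subunit, read 628.9, 616.8 and 566.2 in M off and 523.0, 511.6 and 548.4 in Z off, without overlap (-0.19). Psmd6, also of the lid, read 899.3, 721.6 and 840.1 in M on and 1029.3, 995.3 and 937.3 in Z on, again without overlap (0.27). None of these differences passed the test.

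The core assembly chaperones had a higher mean for 3 of 4 members in Z on against Z off and for 4 of 4 in M on against M off, with medians of 0.23 and 0.15, and a lower mean for 4 of 4 in Z on against M on, with a median of -0.06. Of the 3 activators, 1 had a higher mean in Z on against Z off and 3 in M on against M off, with medians of -0.04 and 0.01. None of these members was called. Psme2, a further activator subunit, is not among them, as its only probe set is shared with Psme2b. That probe set gave -0.02 in Z on against Z off and 0.21 in M on against M off. In Z on against M on it was lower without overlap (-0.27) and was not called. The core assembly chaperone Psmg2 read 114.1, 117.3 and 155.8 in M off, 185.7, 159.2 and 165.4 in M on, 90.6, 160.7 and 129.4 in Z off, and 215.3, 141.6 and 139.7 in Z on. Its M groups did not overlap, nor did those of Psmd8, which was lower in M on, 2 of 45 members against 10.5% of all probe sets. The Psmg2 difference of 0.41 in M on against M off (SE 0.26) had a limma unadjusted p of 0.151. The differences of the cap chaperones Psmd5, Psmd9 and Psmd10 were -0.18, 0.17 and 0.12 in Z on against Z off.

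Psmg3, another chaperone of core assembly, read 209.3, 182.9 and 166.9 in M off, 185.3, 263.6 and 156.9 in M on, 150.4, 105.3 and 167.7 in Z off, and 165.4, 219.8 and 167.6 in Z on. The lowest of the 12 signals was a Z off array, and the Z off group overlapped each of the others. The difference was -0.42 in Z off against M off (SE 0.26, limma adjusted p = 0.7418). Psmg1, the partner of Psmg2 in core assembly, read 269.2, 294.8 and 376.4 in M off and 393.4, 346.0 and 334.8 in M on, a difference of 0.20 with overlapping groups. The cap chaperone Psmd5 read 272.6, 288.8 and 293.1 in M off and 334.7, 404.1 and 338.5 in Z off, without overlap (0.33).

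Psmf1, which encodes a proteasome inhibitor, read 196.6, 264.3 and 199.5 in Z off and 154.0, 202.6 and 184.9 in Z on, a difference of -0.28 (SE 0.19, limma adjusted p = 0.8701). The groups overlapped, and with all its probe sets averaged the difference was 0.05. Psme1 and Psme3, subunits of the PA28 activators, differed by -0.04 and -0.07 between Z on and Z off. Psmc3ip, the member with the smallest unadjusted p in this comparison (0.0382), read 16, 79.1 and 102.5 in Z off and 19.5, 16.8 and 9.5 in Z on. These are dim signals, 1 Z off array lay within the Z on range, and the gene is no proteasome subunit (difference -1.79, SE 0.75, limma adjusted p = 0.7703).

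Seen over all members, 29 of 45 (64.4%) had a higher mean in Z on than in Z off, with a median difference of 0.08. For M on against M off the count was 31 of 45 (68.9%), where 48.9% of all probe sets were higher, with a median of 0.02 against -0.01. The interaction was positive for 24 of 45 members (53.3%, against 48.5% of all probe sets), with a median of 0.02. Its largest positive values were those of Psma5 (0.57, SE 0.33), Psmd7 (0.56, SE 0.43) and Psmd14 (0.42, SE 0.29), the first and second of which turned negative with probe sets averaged. Its largest negative values were those of Psmc3ip (-2.05, SE 1.06) and Psmd3 (-0.46, SE 0.25), and the smallest limma adjusted p of any member was 0.9332. Without the first Z off array, the median in Z on against Z off was 0.01 and that of the interaction -0.05.

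**Figure D3:**
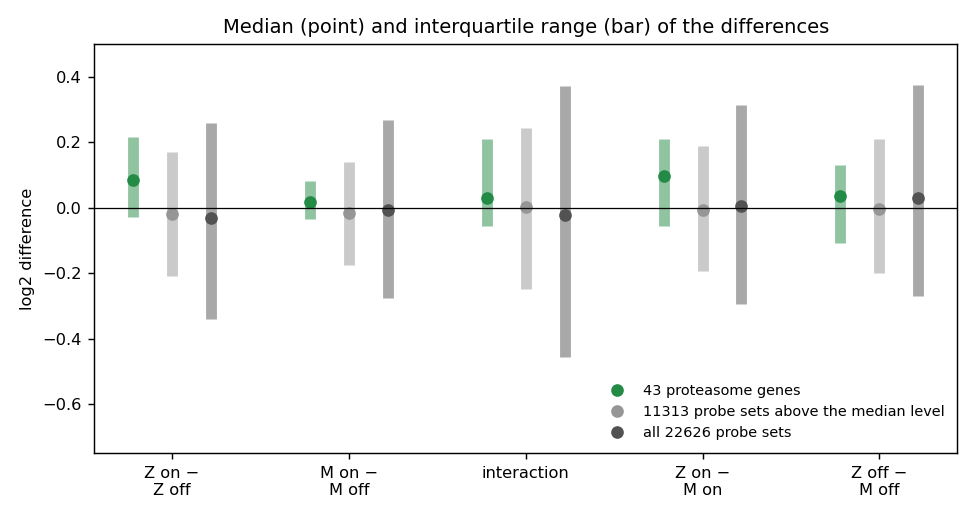
Median (points) and interquartile range (bars) of the log2 differences in each comparison for the 43 proteasome genes, for the 11313 probe sets above the median level and for all 22626 tested. The proteasome genes lie close to 0 in every comparison, with medians from 0.02 to 0.10.

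Array by array, the groups overlapped in the median of the proteasome genes. For each array the median deviation of the 43 proteasome genes from their own means over 12 arrays was taken. It was -0.04, 0.02 and -0.06 in M off, 0.04, -0.05 and -0.06 in M on, -0.07, 0.09 and 0.01 in Z off, and 0.01, 0.15 and 0.10 in Z on. The group means were -0.03 ± 0.04 (SD, n = 3), -0.02 ± 0.06, 0.01 ± 0.08 and 0.09 ± 0.07, and Z on and Z off overlapped. The Z on arrays had the highest mean, with 33 of 43 genes above their own mean on the second array, 27 on the third and 22 on the first. The summed signal of the 43 genes, in which bright probe sets weigh most, was 28180 to 29580 in M off, 28770 to 29750 in M on, 28510 to 30320 in Z off and 29860 to 32040 in Z on. By this sum the Z on arrays stood above all M arrays and overlapped Z off. The first Z on array also had the beta-actin ratio of 5.16, and the second the ratio of 2.44. The part of RNA integrity and of stellate, endothelial, erythroid and skeletal muscle RNA in these differences, those of M on against M off included, was not tested.

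**Figure D4:**
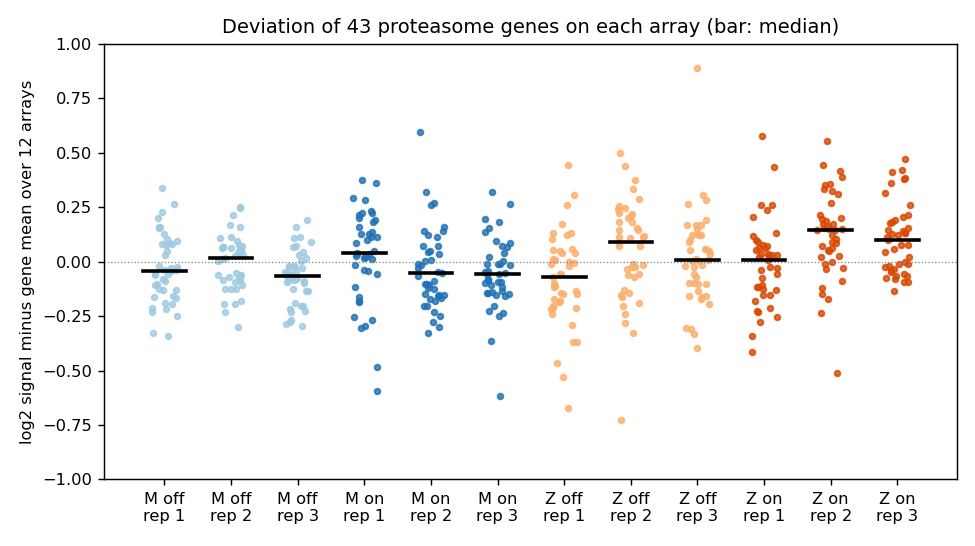
Deviation of each proteasome gene (points) and their median (bar) from the gene's mean over the 12 arrays, on the log2 scale, by array. The array medians run from -0.07 to 0.15 and the groups overlap, and 7 of 516 points, all of Psma8, lie beyond the axis and are not drawn.

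Differences between the lines were small in both doxycycline states. In Z on against M on 31 of 45 members had a higher mean in Z (68.9%, against 50.3% of all probe sets), with a median of 0.09. In Z off against M off it was 28 of 45 (62.2%, against 52.8%), with a median of 0.06. In Z on against M on, 7 members were higher without overlap (Psma4, Psmb5, Psmb7, Psmc1, Psmc4, Psmd6 and Psmd8), where 6.07% of all probe sets were. Psmc3ip and Psme3 were lower without overlap, which makes 9 members (20%) in either direction against 12.1% of all probe sets. In Z off against M off, Psmb7, Psmc4, Psmc6, Psmd4, Psmd5 and Psmd8 were higher and Psmd12 was lower without overlap, 7 members in all, where 15.1% of all probe sets did not overlap.

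Psmd8, a lid subunit of the cap, gave the largest such difference among the subunits. It read 687.5, 788.6 and 642.6 in M off, 638.5, 639.1 and 612.5 in M on, 810.8, 1113.2 and 817.5 in Z off, and 855.7, 985.2 and 1055.2 in Z on. All 6 Z arrays were above all 6 M arrays. The Z on against M on difference was 0.61 (SE 0.18, interval 0.20 to 1.02, limma unadjusted p = 0.00796, adjusted p = 0.5279). In Z off against M off it was 0.36 (SE 0.18, adjusted p = 0.6913).

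A contrast of both Z groups with both M groups was added after these values had been seen. In it Psmd8 averaged 939.6 ± 129.7 (SD, n = 6) in Z mice and 668.1 ± 63.8 in M mice, a difference of 0.49 (SE 0.13, limma adjusted p = 0.3083). Over 21 other settings of the analysis its difference lay between 0.41 and 0.53 and its adjusted p between 0.0586 and 0.4843, none under the threshold. Psmc4, an ATPase of the cap, read 359.0, 353.1 and 335.4 in M off, 388.6, 358.9 and 329.4 in M on, 399.2, 443.0 and 433.4 in Z off, and 410.0, 403.0 and 437.8 in Z on. Its Z arrays also stood above all M arrays, at a difference of 0.25 (SE 0.10, limma adjusted p = 0.5222). With both its probe sets averaged, that difference was 0.05. Among all probe sets, 0.924% did not overlap between the 6 Z and the 6 M arrays and 0.0884% were called.

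Psme4 encodes PA200, an activator that opens the core without the cap, and its 3 probe sets gave different values. The brightest read 867.9, 884.6 and 794.6 in M off, 690.9, 1022.0 and 874.0 in M on, 718.6, 718.9 and 954.7 in Z off, and 1149.6, 595.7 and 1104.1 in Z on, with no separation of the lines (0.10 in Z on against M on, limma adjusted p = 0.9724). The dimmest read 138.8, 176.0 and 179.2 in M off, 118.8, 143.8 and 138.6 in M on, 217.3, 207.7 and 217.0 in Z off, and 196.2, 237.7 and 237.3 in Z on. By it all 6 Z arrays exceeded all 6 M arrays, at 0.74 in Z on against M on (SE 0.17, limma adjusted p = 0.4273). The remaining probe set gave 0.62 (SE 0.16, adjusted p = 0.454). Probe sets of one gene can match different parts or forms of its transcript, and which of them reflects the gene was not tested.

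**Figure D5:**
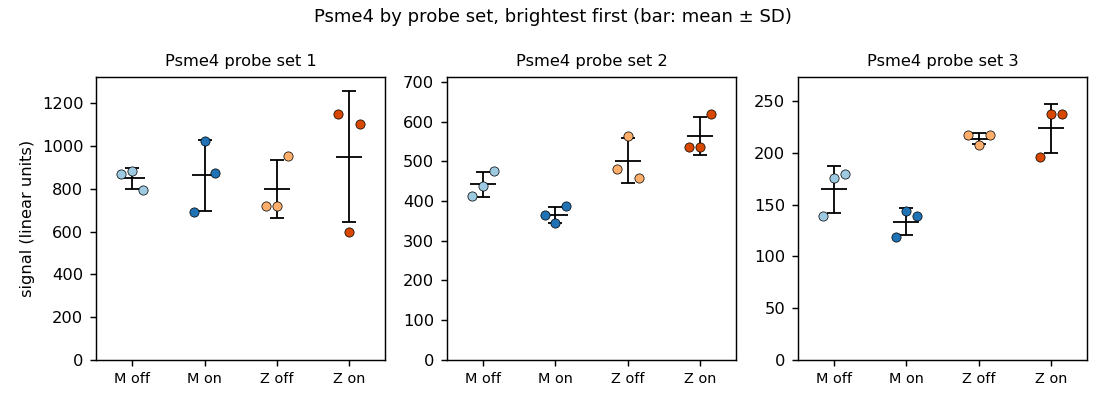
Signal on each of the 12 arrays of the 3 probe sets of Psme4, by group, with bars for the group mean ± SD. The dimmest probe set separates all Z from all M arrays, and the brightest does not.

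More than 1 probe set was present for 21 of the 45 genes, which gave 37 further probe sets. None was called in any comparison. Their sign was opposite to that of the representing probe set for 10 of 37 in Z on against Z off, 17 in M on against M off, 12 in the interaction, 15 in Z on against M on and 18 in Z off against M off. At an unadjusted p under 0.05 they numbered 1, 3, 2, 4 and 1 in the same order. Of the 37, 23 lay above the median level of all probe sets, and the counts include the dim ones. The direction of a small difference therefore depended on the probe set for a number of these genes, with dim probe sets counted.

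The control regions of the members were read for a motif of NRF1-type factors, TGACNNNGC, the core of the antioxidant response element at which NRF1 is known to act. RefSeq (GRCm38.p6) gave promoter windows, from 250 bases before to 50 after the start, for 37 of the 45 genes in 40 windows. On either strand, 6 of 40 windows (15%) held the motif, against 12.4% of all 32851 windows. CCAAT, the box bound by NF-Y, was found in 14 of 40 (35%) against 37.4%. No CCAAT match overlapped the stretches printed here. Each match is printed 5' to 3' on the strand that carries the motif, with the motif in capitals. Flanking bases are shown, those of Psmd12 being cut at the edge of its window. The matches are given because they show which member genes hold the motif. They belong to Psmb5 (chr14:54618024-54618052, minus strand), Psmb6 (chr11:70525338-70525366, plus), Psmc6 (chr14:45329587-45329615, minus), Psmd12 (chr11:107479278-107479299, minus), Psmd9 (chr5:123228149-123228177, plus) and Psme4 (chr11:30771758-30771786, minus).
Psmb5: cgtgaagttgTGACGTCGCggcgttgcca
Psmb6: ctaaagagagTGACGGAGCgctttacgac
Psmc6: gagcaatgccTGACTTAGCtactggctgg
Psmd12: ggggcaaatgTGACACAGCaga
Psmd9: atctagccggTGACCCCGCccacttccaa
Psme4: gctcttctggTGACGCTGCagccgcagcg
The motif share in members was close to that of all promoters, and a match is a description, not a binding site. Of these genes none was called in any comparison. The values of Psmb5 and Psmb6 are those given above. Psmc6, Psmd12, Psmd9 and Psme4 differed by 0.16, 0.19, 0.17 and 0.21 between Z on and Z off. The value for Psmc6 turned negative with its probe sets averaged, of which only the dimmest (8.1 to 39.0 signal units) was negative (-0.28).

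Related genes of the pathway were looked up from a list of 41 (immunoproteasome subunits, partners and maturation factors of the proteasome, regulators of its transcription, and ubiquitin with its shuttle factors), of which 30 had a probe set. None was called. The partners and maturation factors had a higher mean for 6 of 7 in Z on against Z off, with a median of 0.12, and for 3 of 7 in M on against M off. In Z on against Z off 17 of all 30 were higher and 13 lower, with a median of 0.05, and in M on against M off 13 were higher and 17 lower, with a median of -0.04. Nfe2l1, the gene of NRF1, read 214.6, 174.8 and 264.6 in M off, 314.5, 302.7 and 241.5 in M on, 266.6, 232.1 and 217.6 in Z off, and 193.7, 210.2 and 181.9 in Z on. Its M on mean was the highest and its Z on mean the lowest, and the Z groups did not overlap. The difference was 0.40 in M on against M off and -0.29 in Z on against Z off, and the interaction was -0.69 (limma unadjusted p = 0.0361, adjusted p = 0.9332).

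Syvn1, which encodes the ubiquitin ligase HRD1 of ER-associated degradation, read 292.6, 327.1 and 281.4 in M off, 219.4, 295.1 and 260.8 in M on, 458.3, 461.4 and 407.0 in Z off, and 218.7, 216.9 and 279.8 in Z on. The Z off arrays stood above the other 9. The Z on against Z off difference of -0.90 had a limma unadjusted p of 0.00065 and an adjusted p of 0.4428. Psmb10, an immunoproteasome subunit, read 231.4, 209.6 and 261.6 in Z off and 313.1, 336.7 and 314.6 in Z on, without overlap, a difference of 0.46 (limma unadjusted p = 0.0304, adjusted p = 0.7455). The other immunoproteasome subunits, Psmb8 and Psmb9, differed by -0.12 and 0.07.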

How the data were processed

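Total RNA from liver, purified with TRIZOL and a column, was labelled with biotin and hybridised, per the labels. The deposited values are linear intensities, 1 signal per probe set and array. The submitters' processing notes name RMA, which gives log2 values, so how the authors made these linear intensities is not known here. Array medians lay between 38.7 and 47.0, and 28.4% of values were under 16. Depth does not apply to arrays. Their number, 3 per group, limits the precision.

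Of 22690 probe sets, 64 controls were left out. The signals were floored at 0.1 (1 value) and turned into log2. Where members are counted as having a higher or lower mean, it is the mean of the log2 signals. Limma 3.58.1 in R 4.3.3 (lmFit, eBayes, tests of both directions) fitted 1 mean per group to all 12 arrays, with Benjamini-Hochberg adjustment over 22626 probe sets. Contrasts of the lines and of both on with both off groups were added after values were seen. Gene symbols came from the platform annotation. A probe set shared by several genes was left out.

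The members, lists and tests were chosen with earlier results of these data known. By rule, per comparison and direction, the called members and else the 3 of smallest unadjusted p were to be described, with the catalytic subunits always. Members named beyond that, and the pathway genes given in full, were chosen after their values were seen. In simulated arrays for Z on against Z off over 22626 probe sets, changes up or down were placed in probe sets above the median level. Of 100 changes by log2 1, 16% were recovered, and of 100 changes by log2 2, 88%, with 5 false calls. The median within-group SD was 0.28 for probe sets above the median level and 0.17 for the members, so these shares are not those of the members. Alternatives were other normalizations, fits, filters, probe-set averages, a replicate block and leaving out each array.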

Additional observations from a re-analysis of the deposited data

How the results depend on the processing

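The number of proteasome genes called was 0 under each of the 123 alternatives over the 7 comparisons, so no setting turned a member into a call. The member median moved by less than 0.064, the pooled SD of the array medians within groups, in 121 of 123. The exceptions were those without the first Z off array (0.012 in Z on against Z off and -0.046 in the interaction). This bound is wider than the medians of M on against M off (0.018), the interaction (0.020) and Z off against M off (0.058), so it does not show that their sign held. Over the alternatives the median ran from -0.016 to 0.058 in M on against M off and from -0.000115 to 0.096 in Z off against M off. Leaving out each array in turn gave medians of 0.012 to 0.11 in Z on against Z off and of -0.046 to 0.082 in the interaction. When a gene's probe sets were averaged, 5 of the values described by rule changed sign: Psma5 in Z on against Z off (-0.082) and in the interaction (-0.18), Psmf1 in Z on against Z off (0.052) and in both on against both off groups (0.073), and Psmd7 in M on against M off (0.22). Over all 21 members with several probe sets, an average added after the values were seen had the other sign for 5 in Z on against Z off, 9 in M on against M off, 5 in the interaction, 6 in Z on against M on and 11 in Z off against M off. Such an average weighs dim and bright probe sets alike.

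Counts of all called probe sets moved more, and are given for Z on against Z off, M on against M off, the interaction, Z on against M on, Z off against M off, Z against M lines, and on against off, in that order. The values with the reported settings were 3, 0, 0, 2, 16, 20 and 2. An intensity trend with robust variances gave 8, 8, 2, 22, 51, 110 and 17, only the probe sets above the median 1, 2, 1, 20, 33, 87 and 5. Centring on the array median gave 1, 5 and 1 in the first 3. With 16 added before log2 the counts were 1, 3, 1 and 10 in the first 4, 41 for the lines and 4 for on against off. Quantile normalization gave 2 in M on against M off and 9 in Z on against M on. Array weights gave 1 in M on against M off, 1 in the interaction and 26 in Z off against M off. With only the groups of a comparison in the fit, 0 were called in Z on against Z off, Z on against M on and Z off against M off. Leaving out single arrays gave 2 to 5, 0 to 2, 0 to 2, 0 to 5, 1 to 6, 7 to 18 and 0 to 5. The cause of these moves was not tested.

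Correlations of the deviations of same-numbered arrays ran from -0.083 to 0.161. Those of the third arrays were positive in all 4 comparisons (0.077 to 0.161), and each of these arrays correlated best with its own number, which did not hold for every array numbered 1 or 2. As not every pair exceeded 0.1, the numbers were not taken as pairs. A replicate block gave 1 in Z on against Z off, 0 in Z on against M on, 6 in Z off against M off, 12 for the lines and 1 for on against off, and 0 proteasome genes in all comparisons.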

Other observations

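Some of the further probe sets of the members gave large log2 differences, at signals dimmer than those of the representing probe set. Of those given here, that of Psmd9 lay above the median level of all probe sets and that of Psmd4 did not. The dimmest probe set of Psmd4, the ubiquitin receptor of the cap, read 4.8, 2.9 and 8.0 in M off, 30.6, 41.4 and 28.2 in M on, 4.5, 4.1 and 12.3 in Z off, and 15.4, 3.4 and 3.6 in Z on. All M on arrays were above all others, at 2.78 in M on against M off (limma adjusted p = 0.4887), while the brightest probe set of the gene gave 0.07. The dimmer probe set of Psmd9, a chaperone of cap assembly, read 23.3, 29.4 and 7.7 in Z off and 52.5, 74.6 and 37.1 in Z on, without overlap (1.60, limma adjusted p = 0.6784), against 0.17 by its brightest probe set. Of the other pathway genes, Ube3c, a ubiquitin ligase that acts at the proteasome, read 161.8, 160.6 and 156.1 in M on and 241.1, 226.8 and 222.1 in Z on, without overlap (0.53, limma adjusted p = 0.5418). Vcp, the segregase that draws substrates out of the endoplasmic reticulum membrane, read 2010.2, 2027.3 and 1771.6 in M off and 1387.7, 1462.6 and 1457.4 in Z off (-0.43, limma adjusted p = 0.6204). Nploc4, from the list of ubiquitin and shuttle factors, lay the other way without overlap. It read 119.4, 139.1 and 133.3 in M off and 159.0, 221.5 and 216.8 in Z off (0.60, limma adjusted p = 0.5777). Mafg read 244.3, 239.8 and 221.9 in M off and 145.3, 175.9 and 109.8 in Z off (-0.74, limma adjusted p = 0.5777). At a limma unadjusted p under 0.05, 2 of the 30 pathway genes were higher and 2 lower in Z off.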
